A study of Arabidopsis thaliana with 6 samples.

Results

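The gibberellin oxidases examined here are 9 Arabidopsis thaliana genes, taken by gene ID from a count table of 29613 genes. They are the 20-oxidase genes GA20OX1 (AT4G25420), GA20OX2 (AT5G51810) and GA20OX3 (AT5G07200), the 3-oxidase genes GA3OX1 (AT1G15550) and GA3OX2 (AT1G80340), and the 2-oxidase genes GA2OX2 (AT1G30040), GA2OX4 (AT1G47990), GA2OX6 (AT1G02400) and GA2OX8 (AT4G21200). All 9 were in the files, and 7 of them had enough counts to be tested. GA20OX1 and GA2OX4 did not. The genes were chosen by family name, with earlier results of these libraries known. Among those results was a higher level of GA20OX2 in the 35S:NPC48 line, so the comparison of genotypes is given for all 9 as a description. Its calls are counted beside those of all genes, with no p-value, and their outcome for GA20OX2 was known.

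The libraries came from polyA RNA of roots, with 3 of 35S:NPC48 and 3 of wild type. In 35S:NPC48 the non-protein-coding RNA gene NPC48 is driven by the 35S promoter of cauliflower mosaic virus, which is active in most tissues, and the number of independent lines behind the 3 libraries is not given in the sources used here. The wild type was Col-0, a label that the 35S:NPC48 samples do not carry. Both genotypes were untreated and at Boyes stage 1.0. They grew on MS/10 medium holding 500 µM phosphate, in a 16 h light period, at 24 °C in the light and 21 °C in the dark. The name NPC48 matched no gene ID, and its level was not analysed here. Replicates 1, 2 and 3 carry the letters A, B and D in both genotypes. No label says that they are separate cultures, so the p-values below reflect the spread among the deposited libraries, part or all of which could be technical.

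Gibberellins are diterpenoid hormones that promote cell elongation and division, in roots as well as in shoots. The last steps of their synthesis are catalysed by soluble dioxygenases that use 2-oxoglutarate and iron. The 20-oxidases make the precursors of the active forms in successive oxidations, the 3-oxidases add the hydroxyl group that makes them active, and the 2-oxidases inactivate them. The active hormone binds the GID1 receptors, which leads to the destruction of the DELLA proteins, repressors of growth. Several genes of the pathway are known to respond to the hormone: GA20OX2 and GA3OX1 transcripts fall when gibberellin is added, while those of several 2-oxidase genes rise.

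Total counts were 9479418, 20789863 and 20120659 in 35S:NPC48 replicates 1, 2 and 3 and 21232247, 21055370 and 23830604 in those of wild type. All 10 root markers, among them WER, SHR, SCR and CASP1, were detected in all 6 libraries, with a summed level from 998 to 1284 CPM (counts scaled to library size). Of 10 shoot and chloroplast markers, 9 or 10 were detected in each library. Their summed level was 180, 101 and 93.6 CPM in 35S:NPC48 and 76.7, 57.7 and 160 CPM in wild type. Replicate 2 stood apart in both genotypes. The summed level of 12 genes known to be induced by phosphate shortage was 7129 CPM in 35S:NPC48 replicate 2 and 7850 CPM in wild type replicate 2, against 166 to 209 CPM in the other 4 libraries, although the labels give 500 µM phosphate for all.

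In the RefSeq annotation of the assembly TAIR10.1, all 9 genes are protein-coding. GA20OX1 and GA2OX8 lie on chromosome 4, GA20OX2 and GA20OX3 on chromosome 5, and the other 5 on chromosome 1. GA3OX1 and GA3OX2 have 2 exons, and the other 7 genes have 3. No annotated gene overlaps any of the 9, so their counts are not shared with an antisense or overlapping partner there. A stretch of neighbouring genes on chromosome 3, from AT3G01280 to AT3G03010, was pointed out by earlier results of these data. Its 168 tested genes had a median log2 difference of 0.98 between 35S:NPC48 and wild type, with 164 above 0, given here as a description. None of the 9 oxidase genes lies in it.

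Per kb of annotated exon, GA2OX6, a gibberellin-inactivating 2-oxidase gene, and GA3OX1 stood far above the rest. GA2OX6 averaged 29.1 ± 8.60 CPM per kb and GA3OX1 13.0 ± 3.22 CPM per kb (SD over all 6 libraries), above 77.2% and 55.3% of tested genes. GA3OX2 followed with 3.16 ± 1.34 CPM per kb. GA20OX2 had 1.41 ± 0.939, GA2OX8 1.09 ± 0.357 and GA2OX2 1.03 ± 0.344 CPM per kb. The lowest were GA20OX3 with 0.411 ± 0.163, GA20OX1 with 0.403 ± 0.414 and GA2OX4 with 0.269 ± 0.107 CPM per kb.

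In this order, GA2OX6 was above GA3OX1 and GA3OX1 above GA3OX2 in 6 of 6 libraries, with no overlap of their ranges. GA3OX2 and GA20OX2 overlapped, as did GA20OX2 and GA2OX8. GA2OX8 and GA2OX2 overlapped, each being higher in 3 of 6 libraries. GA2OX2 was above GA20OX3 in 6 of 6, and the ranges of GA20OX3, GA20OX1 and GA2OX4 overlapped. GA2OX2 has the longest annotated exon length of the 9, 2.38 kb, and a level per kb depends on how much of that length these roots transcribe.

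**Figure D1:**
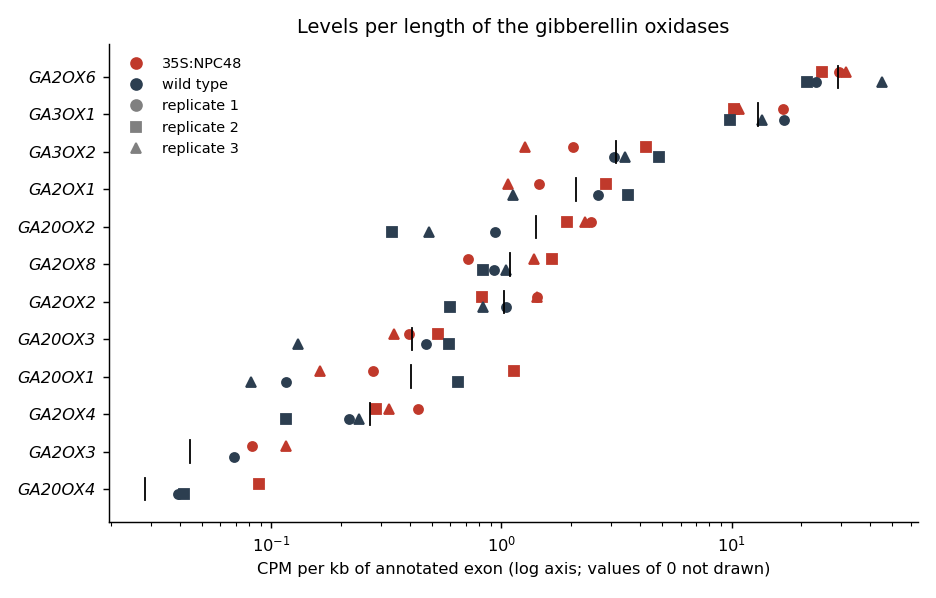
Level per length of the gibberellin oxidases that had any count, in CPM per kb of annotated exon on a log axis, with 35S:NPC48 libraries in red above wild type libraries in dark blue, a symbol for each replicate and a bar at the mean of the 6 libraries. GA2OX6 and GA3OX1 lie to the right of all others, and GA20OX2 is the gene whose red and blue points separate most.

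GA20OX2, a 20-oxidase gene known to act partly redundantly with GA20OX1, had an about 4-fold higher level in 35S:NPC48. It had 3.84, 3.01 and 3.60 CPM in 35S:NPC48 replicates 1, 2 and 3, against 1.47, 0.521 and 0.758 CPM in those of wild type. Every 35S:NPC48 library was above every wild type library, and wild type replicate 1 was the highest of its group. The counts behind these levels were 36, 60 and 72 in 35S:NPC48 and 33, 11 and 18 in wild type. The ratio of 35S:NPC48 to wild type was 2.61 in replicate 1 (95% exact interval 1.58 to 4.32), 5.77 in replicate 2 (3.01 to 12.2) and 4.75 in replicate 3 (2.80 to 8.46). These and all exact intervals below cover counting error only, not the spread between libraries. The log2 difference was 1.91 ± 0.41 (SE) without and 2.00 ± 0.31 with the replicate number as a block, or 3.76-fold and 4.01-fold.

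The summed level of the shoot markers was also higher in 35S:NPC48 in replicate 1 (180 CPM, against 76.7 CPM in wild type) and replicate 2 (101 CPM, against 57.7 CPM), and lower in replicate 3 (93.6 CPM, against 160 CPM). Of 8 tested shoot markers, 7 had a log2 difference above 0, with a median of 0.38 with the block, and edgeR called 0 of them in either fit. The part of shoot material in the level of GA20OX2 was not tested. In roots as a whole, more RNA per cell and more cells that express a gene cannot be told apart.

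GA20OX1, the 20-oxidase gene best known from stems, was the member that separated replicate 2 most. It had 0.426, 1.76 and 0.25 CPM in 35S:NPC48 replicates 1, 2 and 3, against 0.178, 0.996 and 0.126 CPM in those of wild type. Replicate 2 was the highest library of each genotype, and the genotypes overlapped. In each replicate the 35S:NPC48 library was above that of wild type, by a ratio of 2.39, 1.76 and 1.98. The 95% exact interval included 1 in each replicate. Summed over both genotypes, 56 counts in replicate 2 stood against 16 in replicates 1 and 3, a ratio of 6.45 after scaling (95% exact interval 3.65 to 12.0). The ratio was 5.73 within 35S:NPC48 (2.70 to 13.6) and 6.57 within wild type (2.69 to 18.3). Here too the intervals leave out the spread between libraries.

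GA20OX1 fell below the filter on low counts in the fits of all libraries, so there it was tested with the filter lifted. It passed the filter only in some fits with a library left out. In edgeR's quasi-likelihood test of all 23918 genes with any count, its log2 difference was 2.23 ± 0.64 between replicates 2 and 1 (adjusted p = 0.0389) and 2.84 ± 0.63 between replicates 2 and 3 (adjusted p = 0.0124). DESeq2 called it between replicates 2 and 3 and not between 2 and 1.

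GA20OX3, known mainly from developing seeds, was near the limit of detection. It had 0.639, 0.853 and 0.550 CPM in 35S:NPC48 and 0.757, 0.948 and 0.211 CPM in wild type, from 5 to 20 counts a library. Both replicate 2 libraries were above the other 4, and the genotypes overlapped. Its log2 difference between genotypes was 0.22 ± 0.46 with the block and 0.11 ± 0.57 without it.

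Added up per kb, GA20OX1, GA20OX2 and GA20OX3 reached 3.18 ± 0.395 CPM per kb in 35S:NPC48 and 1.27 ± 0.491 CPM per kb in wild type (SD, n = 3 each). GA20OX2 made up 78.5%, 53.6% and 82.1% of this sum in 35S:NPC48 replicates 1, 2 and 3, and 61.6%, 21.3% and 69.5% in those of wild type. GA20OX1 made up 31.6% in 35S:NPC48 replicate 2 and 41.1% in wild type replicate 2, against 5.76% to 11.7% in the other 4 libraries.

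**Figure D2:**
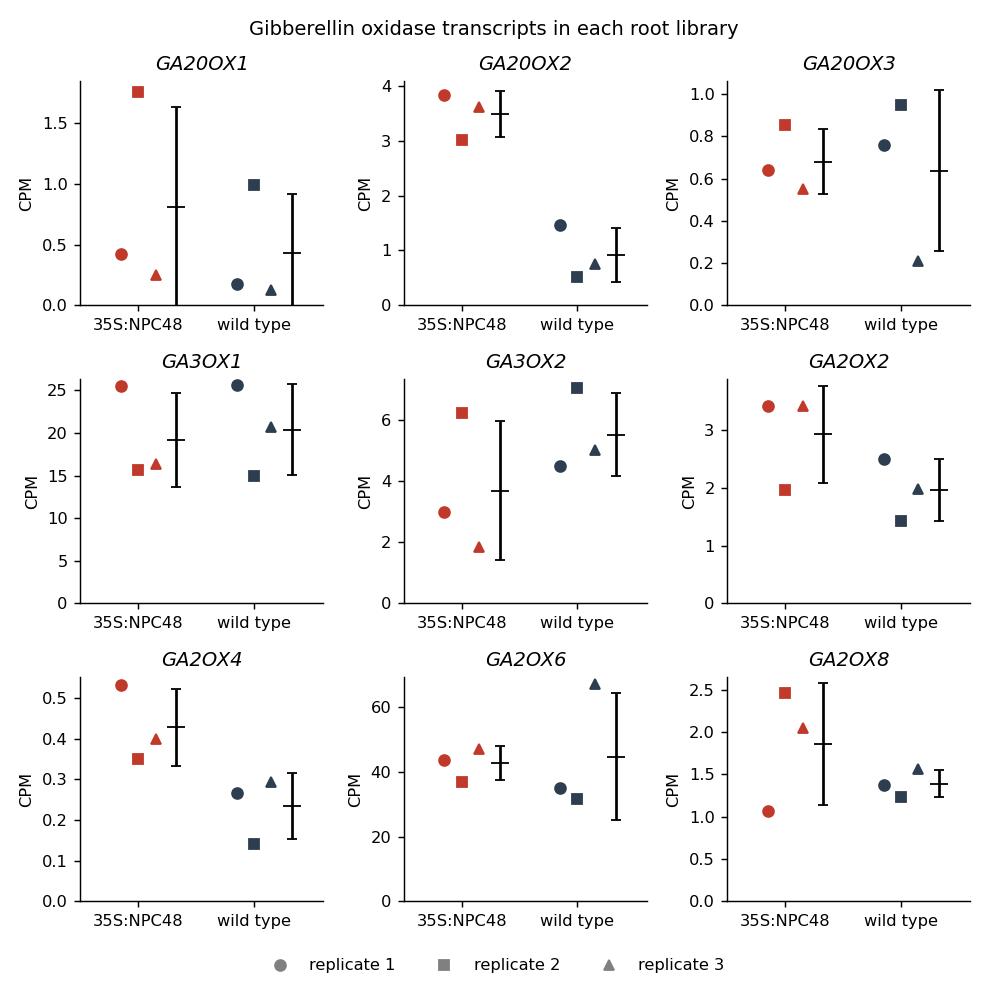
CPM of the 9 gibberellin oxidase genes in each root library, with 35S:NPC48 left of wild type, a symbol for each replicate and the mean ± SD of 3 libraries beside each group (bars are cut at 0 for GA20OX1, and each panel has its own scale from 0). GA20OX2 lies at 3.01 to 3.84 CPM in 35S:NPC48 and at 0.521 to 1.47 CPM in wild type, and the replicate 2 squares of GA20OX1 lie above its other points.

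Transcripts of the 3-oxidase genes were mostly those of GA3OX1. It made up 89.2%, 70.6% and 89.5% of the sum of both genes per kb in 35S:NPC48 replicates 1, 2 and 3. In those of wild type it made up 84.5%, 67.0% and 79.8%. GA3OX1 had 25.6, 15.6 and 16.4 CPM in 35S:NPC48 and 25.6, 14.9 and 20.7 CPM in wild type. Replicate 2 was the lowest of each genotype. The ratio of 35S:NPC48 to wild type was 0.999 in replicate 1, 1.05 in replicate 2 and 0.793 in replicate 3, where the 95% exact interval lay below 1 (0.688 to 0.914). The log2 difference between genotypes was -0.09 ± 0.12 with the block and -0.10 ± 0.26 without it.

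GA3OX2, which is active in germinating seeds and seedlings beside GA3OX1, had 2.98, 6.22 and 1.85 CPM in 35S:NPC48 and 4.50, 7.06 and 5.01 CPM in wild type. Here replicate 2 was the highest of each genotype, the opposite of GA3OX1. The 35S:NPC48 library was below the wild type library in 3 of 3 replicates, by a ratio of 0.664, 0.881 and 0.369, and the 95% exact interval lay below 1 in replicate 3 only (0.248 to 0.538). The genotypes overlapped, and the log2 difference was -0.70 ± 0.27 with the block and -0.57 ± 0.44 without it. With libraries left out it ran from -1.23 to -0.25 in the fit with no block. The lowest value came without 35S:NPC48 replicate 2, the highest library of its genotype, while wild type replicate 2 was kept.

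GA2OX6 had the highest level per kb of the 2-oxidase genes in each library. Of the sum over all 7 2-oxidase genes examined, GA2OX1 included, it made up 81.5% to 87.9% in 35S:NPC48 and 80.6% to 93.3% in wild type, with the lowest share of each genotype in replicate 2. It had 43.8, 37.0 and 47.2 CPM in 35S:NPC48 and 34.9, 31.7 and 67.2 CPM in wild type. Wild type replicate 3 stood above the other 5 libraries, and the genotypes overlapped. The log2 difference was 0.00 ± 0.16 with the block and -0.07 ± 0.29 without it.

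The enzymes of GA2OX2 and GA2OX4 act on the same kind of substrate as GA2OX6. GA2OX2 had 3.41, 1.96 and 3.40 CPM in 35S:NPC48 and 2.49, 1.42 and 1.98 CPM in wild type. The 35S:NPC48 library was above the wild type library of the same number in 3 of 3 replicates, although the groups overlapped. The log2 difference was 0.57 ± 0.24 with the block and 0.56 ± 0.34 without it. GA2OX4 had 0.533, 0.351 and 0.400 CPM in 35S:NPC48 and 0.267, 0.142 and 0.295 CPM in wild type. These groups did not overlap, but they rest on 5, 7 and 8 counts and on 6, 3 and 7 counts, and each replicate's 95% exact interval of the ratio includes 1.

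GA2OX8, whose enzyme inactivates precursors rather than active gibberellins, had 1.07, 2.46 and 2.05 CPM in 35S:NPC48 and 1.38, 1.23 and 1.56 CPM in wild type. The 35S:NPC48 libraries spread more widely than those of wild type and included both the lowest and the highest value. The counts were 10, 49 and 41 in 35S:NPC48 and 31, 26 and 37 in wild type. The lowest level thus rests on 10 counts, in the library with the smallest total count. The log2 difference of GA2OX8 between genotypes was 0.41 ± 0.33 with the block and 0.45 ± 0.36 without it.

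Between genotypes, edgeR called 0 of the 7 tested oxidases without the block. Over all 19608 tested genes 0.0102% were called. With the block edgeR called 1 of 7, GA20OX2, where 1.21% of all genes were called (0.841% higher and 0.367% lower in 35S:NPC48), and DESeq2 called GA20OX2 with and without the block. Nothing is read from this count, since the call was known when the genes were chosen. In edgeR the call with the block was lost when both replicate 2 libraries were left out, with a log2 difference of 1.79. It was also lost when the chromosome 3 stretch was kept out of the adjustment, which leaves the difference itself as it was. Of the 7 genes, only GA20OX2 had groups that did not overlap, against 7.76% of all tested genes (3.94% higher and 3.82% lower in 35S:NPC48).

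Between replicate numbers, the 3-oxidase genes and GA2OX6 moved in different directions. GA3OX1 fell in replicate 2 against replicate 1, by a log2 of -0.74 ± 0.15 (edgeR, adjusted p = 0.0144), which is 0.598-fold, and its log2 difference from replicate 3 was -0.28 ± 0.15 (adjusted p = 0.229). GA3OX2 rose in replicate 2 against replicate 3, by a log2 of 1.05 ± 0.31 (adjusted p = 0.0491) or 2.07-fold, and its log2 difference from replicate 1 was 0.88 ± 0.32 (adjusted p = 0.0970). GA2OX6 fell in replicate 2 against replicate 3, by a log2 of -0.74 ± 0.20 (adjusted p = 0.0335), with -0.19 ± 0.20 against replicate 1 (adjusted p = 0.551). Each direction was seen in both genotypes. Of the 7 genes, GA3OX1 had the largest F statistic for the replicate number.

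The other 4 tested oxidases were not called in any of these comparisons. GA2OX2 was lower in replicate 2 than in replicates 1 and 3 in both genotypes, with log2 differences of -0.81 ± 0.31 and -0.65 ± 0.30 (edgeR adjusted p = 0.102 and 0.162). The adjusted p of GA20OX2 was 0.171 against replicate 1 and 0.569 against replicate 3. Between replicates 3 and 1 edgeR called 0 of 7, with 2 at an unadjusted p under 0.05, and DESeq2 called 0. Of all 19608 tested genes, 2659 were at an unadjusted p under 0.05 in edgeR there, and nothing is read from the 2.

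The background for these counts is high, and with 7 genes nothing is read from them about the family. Between replicates 2 and 1 edgeR called 1 of 7 oxidases, against 19.9% of all tested genes. Between replicates 2 and 3 it called 2 of 7, against 21.7%, and between replicates 3 and 1 it called 0% of all genes. Both replicate 2 libraries lay outside the other 4 for 4 of 7 oxidases (GA20OX3 and GA3OX2 above, GA3OX1 and GA2OX2 below), against 42.6% of all tested genes (21.5% above and 21.1% below).

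The calls between replicates rest on 2 libraries a number. That of GA3OX1 was lost without 35S:NPC48 replicate 1 (log2 -0.68), 35S:NPC48 replicate 2 (-0.86) or wild type replicate 2 (-0.62). That of GA3OX2 was lost without 35S:NPC48 replicate 2 (0.67) or replicate 3 (0.56), in DESeq2 (1.08) and without a genotype term (0.94), and that of GA2OX6 without 35S:NPC48 replicate 2 (-0.89) or wild type replicate 2 (-0.57). The replicate number moves with the phosphate starvation genes, and the part of phosphate supply in these differences was not tested. The 8 tested shoot markers had a median log2 difference of -0.77 between replicates 2 and 1, where edgeR called 1 of them, and -0.83 between replicates 2 and 3, where it called 0. Their part was not tested either.

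**Figure D3:**
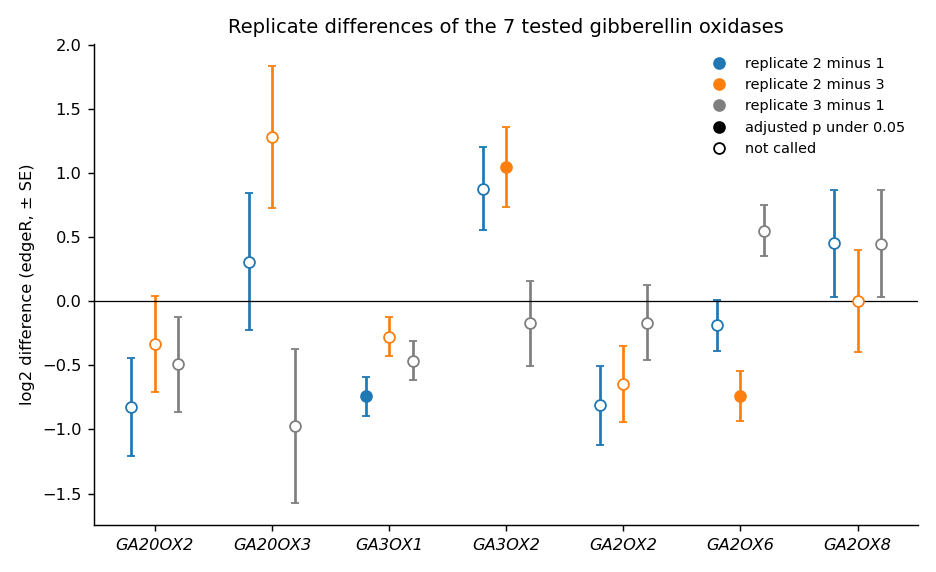
Log2 difference between replicate numbers (edgeR, ± SE) for the 7 tested gibberellin oxidases, over both genotypes, with filled points where the adjusted p was under 0.05. GA3OX1 is called at -0.74 between replicates 2 and 1, GA3OX2 at 1.05 and GA2OX6 at -0.74 between replicates 2 and 3, and no gene is called between replicates 3 and 1.

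The other gibberellin oxidases were mostly silent in these roots. GA20OX5, GA3OX3, GA3OX4 and GA2OX7 had 0 counts in all 6 libraries, which allows a level of up to 0.126 to 0.320 CPM a library (a floor of 3 counts). GA20OX4 had 4 counts and GA2OX3 6 counts in all libraries together. GA2OX1 was the exception and the 1 of these 7 that was tested. It had 1.92, 3.71 and 1.40 CPM in 35S:NPC48 and 3.43, 4.65 and 1.47 CPM in wild type. It rose in replicate 2 against replicate 3, by a log2 of 1.53 ± 0.31 (edgeR, adjusted p = 0.0121), a direction opposite to that of GA2OX6. Its log2 difference between genotypes was -0.40 ± 0.25 with the block (edgeR adjusted p = 0.627) and -0.42 ± 0.51 without it.

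Upstream of the oxidases, early synthesis was detected except for its first enzyme. CPS, which makes ent-copalyl diphosphate and commits the pathway, had 1 count in all 6 libraries together. KS, the ent-kaurene synthase, had 9.84 ± 2.36 CPM in 35S:NPC48 and 13.2 ± 3.68 CPM in wild type, and KO, the ent-kaurene oxidase, 23.2 ± 2.25 and 23.5 ± 5.63 CPM (SD, n = 3 each). KS overlaps a gene on the opposite strand, and the strand setting of the counts is not given in the sources used here. Between genotypes 0 of 4 tested genes of this list were called, with a median log2 of -0.14 with the block. KAO2, an ent-kaurenoic acid oxidase, fell in replicate 2 against replicate 1 (log2 -0.86 ± 0.20, edgeR adjusted p = 0.0209), and KS rose in replicate 2 against replicate 3 (0.68 ± 0.19, adjusted p = 0.0395).

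Of the genes of other inactivation routes and of transport, 4 of 8 were tested and 0 were called between genotypes, with a median log2 of -0.09 with the block. CYP714A1, a cytochrome P450 that deactivates gibberellins, had 22.6 ± 2.95 CPM in 35S:NPC48 and 20.8 ± 2.91 CPM in wild type. SWEET13, a sugar transporter that also carries gibberellin, had 0.320, 5.67 and 1.15 CPM in 35S:NPC48 and 0.935, 9.24 and 1.26 CPM in wild type. It rose in replicate 2, by a log2 of 3.46 ± 0.36 against replicate 1 (edgeR adjusted p = 7.56e-04) and 2.60 ± 0.32 against replicate 3 (adjusted p = 0.00172). This was the largest replicate difference among the 23 tested genes of the 4 pathway lists.

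All 12 genes of receptors and DELLA signalling were tested, and 0 were called between genotypes, with a median log2 of -0.02 with the block. RGA, the DELLA gene with the highest CPM, had 100 ± 19.3 CPM in 35S:NPC48 and 103 ± 20.01 CPM in wild type, and the receptor gene GID1B had 48.4 ± 3.23 and 48.8 ± 2.98 CPM. RGL3, a DELLA gene named after its values were seen, had 3.20, 1.96 and 1.85 CPM in 35S:NPC48 and 5.70, 3.98 and 3.62 CPM in wild type. Its groups did not overlap, as was so for 7.76% of all tested genes (3.82% lower in 35S:NPC48). The log2 difference of RGL3 was -0.94 ± 0.21 with the block (edgeR adjusted p = 0.117) and -0.95 ± 0.32 without (adjusted p = 0.951). Between replicate numbers, RGA and GID1C fell in replicate 2 against both others. RGA had log2 differences of -0.52 ± 0.11 and -0.49 ± 0.11 (edgeR adjusted p = 0.0178 and 0.0198). SPY, an O-fucosyltransferase that modifies DELLA proteins, fell against replicate 1 (-0.44 ± 0.13, adjusted p = 0.0462), and SLY1, the F-box protein that marks DELLA proteins for destruction, against replicate 3 (-0.59 ± 0.14, adjusted p = 0.0233).

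Of 5 genes known as direct targets of DELLA proteins, 3 were tested, and 0 were called between genotypes (median log2 -0.02 with the block). SCL3, a GRAS protein that opposes the DELLA repressors, had 28.4 ± 6.65 CPM in 35S:NPC48 and 29.5 ± 10.11 CPM in wild type. It fell in replicate 2 by a log2 of -0.66 ± 0.15 against replicate 1 and -0.85 ± 0.15 against replicate 3 (edgeR adjusted p = 0.0220 and 0.00759). WRKY27 fell by -1.03 ± 0.20 and -1.31 ± 0.20 (adjusted p = 0.0110 and 0.00425), and XERICO, a RING finger protein, fell against replicate 3 only (-0.59 ± 0.17, adjusted p = 0.0437).

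Over the 4 pathway lists together, edgeR called 0 of 23 tested genes between genotypes, without the block and with it. Of all tested genes it called 0.0102% and 1.21%. DESeq2 called 0 of the 23 in both fits. In edgeR, 1 of the 23 genes without the block and 3 with it had an unadjusted p under 0.05. The share over all genes is not given for that threshold, so nothing is read from these 23 genes there. Their median log2 difference was -0.03 with the block, against 0.01 over all tested genes. Between replicates 2 and 1, 1 rose and 6 fell, and between replicates 2 and 3, 2 rose and 6 fell. The share of all tested genes that rose was 10.8% and 11.3% in these comparisons, and the share that fell was 9.20% and 10.4%.

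**Figure D4:**
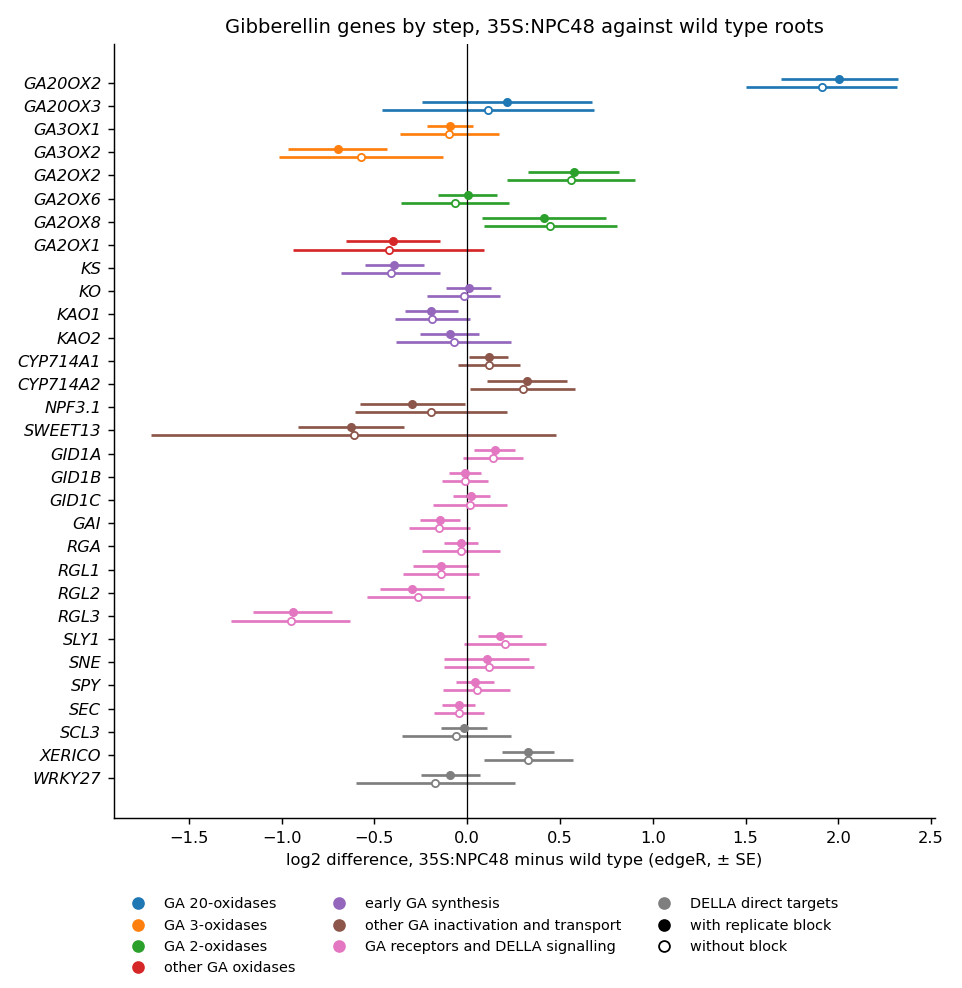
Log2 difference between 35S:NPC48 and wild type (edgeR, ± SE) for each tested gene of the gibberellin pathway, with the replicate block (filled) and without it (open), coloured by step. GA20OX2 stands at 2.00 with the block, while the 23 genes of the pathway lists lie between -0.94 and 0.33 with the block.

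The 3 genes whose levels ran most like those of GA20OX2 over the 6 libraries all lay in the chromosome 3 stretch. Both GA20OX2 and the stretch were known beforehand to be higher in 35S:NPC48. Their likeness was thus largely fixed in advance, and nothing is read from it. Likeness was measured as the root mean square difference of log2 CPM, centred on the mean of each gene, among 18651 tested genes outside the lists with a mean of at least 1 CPM. CYP38 (AT3G01480) was nearest at 0.35, followed by BET10 (AT3G01770) at 0.44 and AT3G01850 at 0.44. CYP38 had 13.9 ± 2.18 CPM in 35S:NPC48 and 5.35 ± 1.46 CPM in wild type (SD, n = 3 each). GA20OX2 itself lies on chromosome 5. For GA3OX1 the nearest profiles were AT3G07530 at 0.05, AT1G61420 at 0.05 and RAV2 (AT1G68840) at 0.06. They had their lowest level in replicate 2 of each genotype, as GA3OX1 did. These 3 genes were chosen for likeness to GA3OX1, which was itself chosen for its replicate F. The shared low was thus also largely fixed in advance, and nothing is read from it. The distances are not compared with those of GA20OX2, which had 11 to 72 counts a library against 240 to 575 for GA3OX1.

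**Figure D5:**
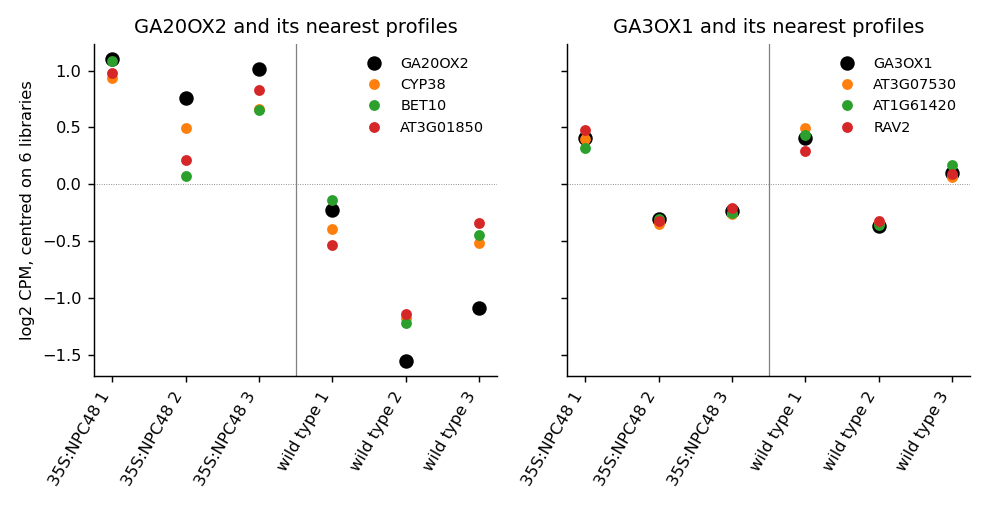
Log2 CPM of GA20OX2 (left) and GA3OX1 (right) in black, each with the 3 genes of nearest profile in colour, centred on the mean of the 6 libraries, with 35S:NPC48 left of wild type. GA20OX2 is high in the 3 libraries of 35S:NPC48 and low in wild type, with its neighbours at a distance of 0.35 to 0.44, while the points of GA3OX1 and its neighbours nearly coincide.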

How the data were processed

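The authors deposited unnormalized whole-number counts of reads for each gene in each library. The submitters' processing notes name TAIR10 as the build, and as tools STAR 2.5.2b, Trimmomatic 0.36, Subread 1.6.5 and featureCounts. The sources used here give neither the annotation release nor the strand setting, nor how multiply matching reads were counted. RefSeq's TAIR10.1 annotation matched 28494 of 29613 IDs and supplied names, chromosome numbers, exon lengths and overlaps. Since the builds differ in version, no coordinates or sequences are printed.

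The tests ran in edgeR 4.0.16 and DESeq2 1.42.0 under R 4.3.3. filterByExpr (minimum count 10, minimum total 15) left 19608 genes, scaled by TMM. CPM were computed from the deposited counts and TMM-scaled library sizes. Genotypes were compared by edgeR's quasi-likelihood test with genotype alone. Replicate numbers were compared in the model with genotype and replicate. A gene was called at a Benjamini-Hochberg adjusted p under 0.05 over all tested genes. SE are from the F statistic. The fits were tested on simulated data. No library was a copy of another of its genotype: chi-square per degree of freedom was at least 16.9.

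Equal replicate numbers were taken as pairs: across genes, deviations from the group means correlated by 0.53, 0.83 and 0.37 for replicates 1, 2 and 3. The labels name no shared day. Replicates 1 and 3 were hardly told apart, with cross-correlations of 0.34 and 0.39.

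The oxidases and pathway lists were chosen with earlier results of these data known. Named from the lists were genes called in any test and up to 3 a list with the highest mean CPM. The likeness rule took the 3 nearest tested genes for GA20OX2 and for the oxidase with the largest replicate F. RGL3 was named after its values were seen. Alternatives were other size factors, no filter, DESeq2, the replicate block, no genotype term and leaving out libraries.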

Additional observations from a re-analysis of the deposited data

How the results depend on the processing

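Without a block edgeR called 2 genes between genotypes. With the replicate block it called 237, of which 1 was an oxidase. DESeq2 called 153 genes and 1 oxidase without the block, and 336 genes and 1 oxidase with it. The block called 118 genes without both libraries of replicate 2, and 36 genes when the chromosome 3 stretch was kept out of the adjustment, with 0 oxidases in either. DESeq2 with the block, and the block with genes or replicate 2 left out, were chosen after seeing the data. The block changed no other oxidase's call between genotypes. Leaving out libraries gave 0 to 46 genes and 0 oxidases.

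Between replicates 2 and 1, 3911 genes and 1 oxidase were called. Leaving out each library gave 1207 to 7967 genes and 0 to 4 oxidases, and with no filter on low counts 2 oxidases were called. Between replicates 2 and 3, 4247 genes and 2 oxidases were called. Leaving out libraries gave 1115 to 6604 genes and 0 to 4 oxidases, and the model without a genotype term called 1 oxidase. Between replicates 3 and 1, 0 genes were called by edgeR (2659 at an unadjusted p under 0.05) and 210 by DESeq2, and leaving out libraries gave 0 to 2145 genes and 0 to 1 oxidases. A number left with 1 library is assumed to vary like the others. The share of all genes called is not given here for the fits with no filter or no genotype term. Nothing is read from the oxidase counts of those fits, or of the fits with libraries left out. In the comparisons with replicate 2, the oxidases called with no filter, or with some libraries left out, include GA20OX1. The filter keeps this gene out of the fits of all libraries. The fits with a library left out that called GA20OX1 all kept both replicate 2 libraries. Its counts there, 35 in 35S:NPC48 and 21 in wild type, were its highest. Whether it passes the filter thus depends on its replicate 2 counts, and nothing is read from its calls in those fits.

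Differences near 0 changed sign when a library was left out. GA20OX3 between replicates 2 and 1 ran from -0.052 to 0.69 on the log2 scale, GA2OX6 between 2 and 1 from -0.44 to 0.053, GA2OX8 between 2 and 3 from -0.50 to 0.42 (-0.0024 in DESeq2), and GA3OX2 between 3 and 1 from -0.86 to 0.23. Between genotypes the sign changed for GA20OX3 (-0.32 to 0.51), GA3OX1 (-0.35 to 0.10) and GA2OX6 (-0.26 to 0.35). The cause was not tested. Counts under 100 in all limit GA20OX1, GA20OX3 and GA2OX4, whose ratios have wide intervals.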
